A study of Mus musculus with 6 samples.

Results

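Adhesion genes of the tracheal mesenchyme were followed after injury by inhaled SO2, with 3 samples at 48 h post injury (48 hpi) set against 3 control samples. They comprise the integrin α and β subunits and the selectins Sele and Selp with the selectin ligand gene Selplg. Icam1 and Vcam1, receptors for integrins of leukocytes, and the junctional adhesion molecules Jam2, Jam3 and F11r complete the list. The list names 33 genes. A gene was taken where the array annotation gives a probe set that gene alone, and the brightest such probe set, by its mean in the 6 arrays, stood for the gene, which left 32 of the 18193 genes measured in the series. Itga11 is not analysed here. All mice were adult C57Bl/6 males. Injured mice breathed 500 ppm SO2 in air for 4 h, a gas injury that kills the luminal cells of the airway epithelium. Control mice were normal and uninjured. In both groups the tracheas were kept in dispase for 23 min and the epithelium was then peeled off, and all remaining tissue of 4 pooled mice made 1 sample. The mesenchyme was not sorted and, unlike the epithelium of the study, is not described as depleted of leukocytes, so it holds fibroblasts, cartilage, smooth muscle, vessels and any blood cells within them.

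Integrins are pairs of an α and a β chain that hold cells to matrix or to other cells. Chains that pair with Itgb1 mostly bind collagen, laminin or proteins with the RGD peptide, such as fibronectin, and are used by fibroblasts, chondrocytes and muscle. Itgb2 pairs with Itgal, Itgam and Itgax, and these dimers are restricted to leukocytes. In an inflamed vein, selectins on the endothelium catch rolling leukocytes through sugars carried by the Selplg product, after which Itgb2 dimers bind Icam1, and dimers of Itga4 bind Vcam1, to arrest the cell before it crosses the vessel wall.

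Within a group, any 2 arrays had a correlation of 0.987 to 0.994, and samples numbered 1 were the least like the others of their group. Pdgfra and Lum, markers of fibroblasts, were bright in both groups (11.19 and 11.19 for Pdgfra, 12.41 and 12.36 for Lum, group means on the log2 scale), as the tissue label has it. Epcam, an epithelial marker, was also above the bound for dim probe sets of 4.74 (7.93 and 7.98). The log2 difference between probe sets at the 3′ and the 5′ end of the β-actin transcript, which grows as RNA degrades, was 1.5 ± 0.41 in controls and 1.03 ± 0.19 at 48 hpi, and that for Gapdh was 1.04 ± 0.42 and 0.68 ± 0.24 (SD, n = 3). The groups overlapped in both measures, since control replicate 2 was at 1.02 and 0.56, and the part of RNA quality in the results was not tested.

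Of the 32 adhesion genes, 6 rose and 1 fell at 48 hpi. In increasing order of size, the rises were in Itga4, Vcam1, Itga5, Selp, Itgb2 and Itgam, and the fall was in Itga10. A gene was called at an adjusted p under 0.05 (limma, Benjamini-Hochberg over all probe sets), a rule by which 4.97% of all genes rose and 1.24% fell. With the replicate number as a block, 9 rose and 2 fell, against 8.77% and 4.64% of all genes. The added calls were Itgax, Selplg and Itgb1 above and Itga8 below. They rest on a pairing that was taken from these same data and is not in the labels. The log2 difference was above 0 in 25 of the 32 genes, against 46.8% of all genes, and the median was 0.27, against -0.01 over all genes. The 3 values at 48 hpi lay wholly above the 3 controls in 15 genes and wholly below in 3, which makes 18, against 17.2%, 13.1% and 30.4% of all genes. These shares and medians describe the list, which was chosen with results of these data known. In bulk tissue a change in the number of cells of a type and a change of RNA per cell cannot be told apart.

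**Figure D1:**
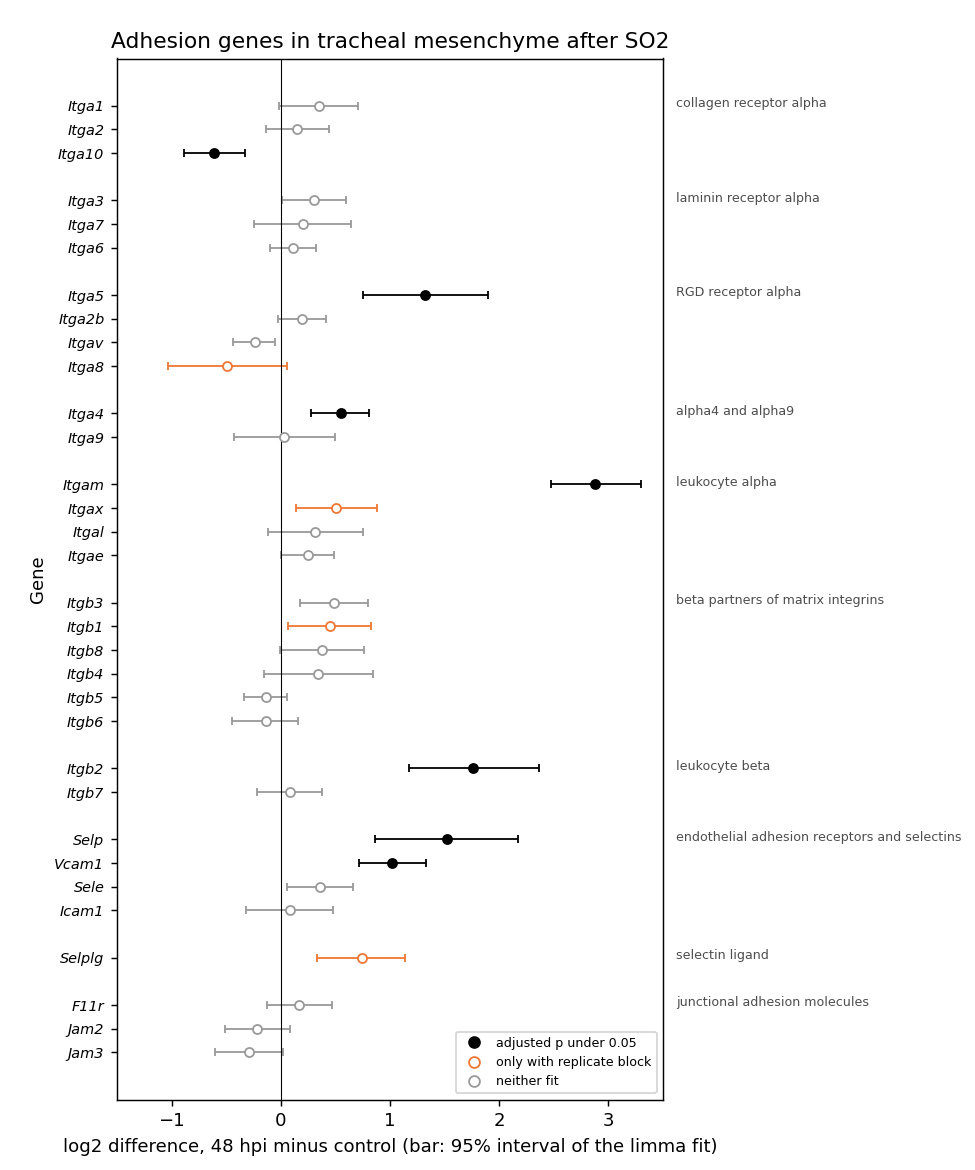
Log2 difference between 48 hpi and control (horizontal axis) for the 32 adhesion genes (vertical axis), grouped by the ligand or partner of the subunit, with the 95% interval of the limma fit as a bar. Filled black points passed at an adjusted p under 0.05, open orange points passed only with the replicate number as a block, and Itgam at 2.88 lies farthest from 0.

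Among leukocyte integrin chains the largest change was in Itgam, the α chain of complement receptor 3 on neutrophils, monocytes and macrophages. Its values were 4.26, 3.78 and 3.82 in controls and 6.90, 6.56 and 7.06 at 48 hpi on the log2 scale. The lowest injured sample thus lay 2.30 above the highest control, the widest gap of any of the 32 genes. The difference was 2.88 ± 0.17 (SE, adjusted p = 0.000505), a 7.38-fold change whose size is poorly fixed because the control mean of 3.95 ± 0.27 (SD, n = 3) was below the dim bound. Itgam passed in all 6 fits that left out 1 sample.

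Its partner Itgb2 rose with it. Itgb2 was at 7.38, 6.63 and 7.27 in controls and at 8.85, 8.47 and 9.24 at 48 hpi. In both groups replicate 2 was the lowest sample, and the groups stayed 1.09 apart. The difference was 1.76 ± 0.25 (3.39-fold, adjusted p = 0.0134), and of the 6 fits without 1 sample it was lost in that without 48 hpi replicate 3 (adjusted p = 0.0551).

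The other α chains that pair with Itgb2 differed less. Itgax, carried by dendritic cells and many macrophages, was at 5.43, 5.02 and 5.03 in controls and 5.90, 5.63 and 5.47 at 48 hpi. The groups were separated by only 0.04. Its difference of 0.51 ± 0.16 passed only with the replicate block (adjusted p = 0.0167, against 0.136 without it), and the sample numbered 1 was the highest of both groups. Itgal, the α chain of the receptor LFA-1 on lymphocytes and other leukocytes, overlapped between groups, at 6.01, 5.57 and 5.85 against 6.37, 5.75 and 6.25, with a difference of 0.31 ± 0.19 (adjusted p = 0.420). The 95% interval for Itgal ran from -0.12 to 0.75, that for Itgax from 0.14 to 0.88 and that for Itgam from 2.47 to 3.30. Chains of intraepithelial and gut-homing lymphocytes were also not called, with differences of 0.25 ± 0.11 for Itgae (adjusted p = 0.266) and 0.08 ± 0.13 for Itgb7 (0.783).

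Itgam and Itgax are next to each other in the order of protein-coding genes of the RefSeq assembly GRCm38.p6, followed by Itgad, which is not analysed here. Their promoters are printed because these neighbors differed in the size of their change, and those of Selp and Itga5, described further on, because they belong to the genes that rose. A RefSeq promoter, from 250 bases before to 50 bases after the start, was available here for 21 of the 32 genes. Itgam lies at chr7:128062390-128062689 (plus strand), Itgax at chr7:128129300-128129599 (plus strand), Selp at chr1:164115014-164115313 (plus strand) and Itga5 at chr15:103366742-103367041 (minus strand), all in build GRCm38.p6 and printed 5′ to 3′ along the gene. Capitals mark matches on either strand to GAGGAA, the core bound by the myeloid factor PU.1, and to TGANTCA, the AP-1 motif. No matches of these motifs overlap here.
Itgam: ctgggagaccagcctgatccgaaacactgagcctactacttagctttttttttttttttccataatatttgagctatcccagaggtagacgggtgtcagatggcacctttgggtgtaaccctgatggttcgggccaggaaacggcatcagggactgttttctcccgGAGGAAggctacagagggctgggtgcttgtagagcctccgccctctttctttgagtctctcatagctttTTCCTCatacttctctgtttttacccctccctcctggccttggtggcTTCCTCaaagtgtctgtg
Itgax: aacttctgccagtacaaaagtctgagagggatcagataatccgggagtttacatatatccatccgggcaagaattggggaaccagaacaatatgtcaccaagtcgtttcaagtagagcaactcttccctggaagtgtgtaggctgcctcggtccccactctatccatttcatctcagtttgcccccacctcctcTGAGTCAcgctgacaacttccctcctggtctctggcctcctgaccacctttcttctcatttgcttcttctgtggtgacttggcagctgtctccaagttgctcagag
Selp: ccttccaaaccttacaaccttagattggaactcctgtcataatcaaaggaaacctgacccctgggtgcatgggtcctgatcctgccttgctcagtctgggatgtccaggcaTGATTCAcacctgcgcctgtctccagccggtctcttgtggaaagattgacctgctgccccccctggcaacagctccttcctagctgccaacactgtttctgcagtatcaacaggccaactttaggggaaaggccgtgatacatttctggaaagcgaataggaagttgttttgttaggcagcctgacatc
Itga5: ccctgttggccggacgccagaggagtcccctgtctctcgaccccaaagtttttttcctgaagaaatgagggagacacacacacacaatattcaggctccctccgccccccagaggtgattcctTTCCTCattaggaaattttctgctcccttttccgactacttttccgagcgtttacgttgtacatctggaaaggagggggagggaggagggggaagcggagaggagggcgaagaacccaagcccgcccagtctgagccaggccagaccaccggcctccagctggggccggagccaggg
The Itgam promoter held 3 matches to GAGGAA, beginning 84 and 15 bases before the start and 32 bases after it, and that of Itga5 held 1, beginning 127 bases before it. Those of Itgax and Selp held TGANTCA, beginning 56 and 139 bases before the start. GAGGAA was found in 28.3% of all 32851 promoters in the RefSeq table and in those of 10 of the 21 adhesion genes, TGANTCA in 7.81% and in those of 6. The NF-kappaB consensus, in 8.46% of all promoters, was found in that of Itga3 alone among the 21. A match describes the letters of the window and is not evidence of binding.

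Genes of receptors that vessels can show to leukocytes changed unevenly, in tissue that was not sorted. Selp, which platelets and endothelial cells store and move to the surface on activation, was at 7.49, 6.49 and 6.53 in controls and at 8.61, 8.09 and 8.35 at 48 hpi. Control replicate 1 stood well above the other controls, yet all injured samples were higher still. The difference was 1.52 ± 0.28 (2.86-fold, adjusted p = 0.0306), and all of its 3 probe sets passed, with differences from 1.29 to 1.82. The call held without control replicate 1 (adjusted p = 0.00573) and was lost when any other sample was left out, with adjusted p up to 0.124.

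Vcam1, the receptor for Itga4 dimers, was at 8.61, 8.38 and 8.71 in controls and at 9.69, 9.38 and 9.69 at 48 hpi. The samples of each group lay close together and the groups were 0.67 apart. The difference was 1.02 ± 0.13 (2.03-fold, adjusted p = 0.00847), and it passed in all fits that left out 1 sample, with adjusted p up to 0.0497, though not with both samples numbered 1 left out (0.0536).

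Icam1, the main receptor for Itgb2 dimers, was not higher at this time. Its values were 8.51, 7.97 and 8.20 in controls and 8.57, 8.13 and 8.21 at 48 hpi, so that the groups overlapped and replicate 1 was the highest in both. The difference of 0.08 ± 0.17 (adjusted p = 0.849) had a 95% interval from -0.32 to 0.48. Sele, a selectin made by endothelium on stimulation, was dim in all samples, at 4.01, 3.95 and 3.59 against 4.30, 4.15 and 4.17. Its difference of 0.36 ± 0.13 did not pass (adjusted p = 0.190).

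Selplg, which encodes the ligand that leukocytes offer to selectins, was at 7.52, 6.92 and 7.40 in controls and at 8.10, 7.82 and 8.13 at 48 hpi. Replicate 2 was again the lowest of each group, and the groups did not overlap. The difference of 0.74 ± 0.17 passed only with the replicate block (adjusted p = 0.00722, against 0.0662 without it).

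**Figure D2:**
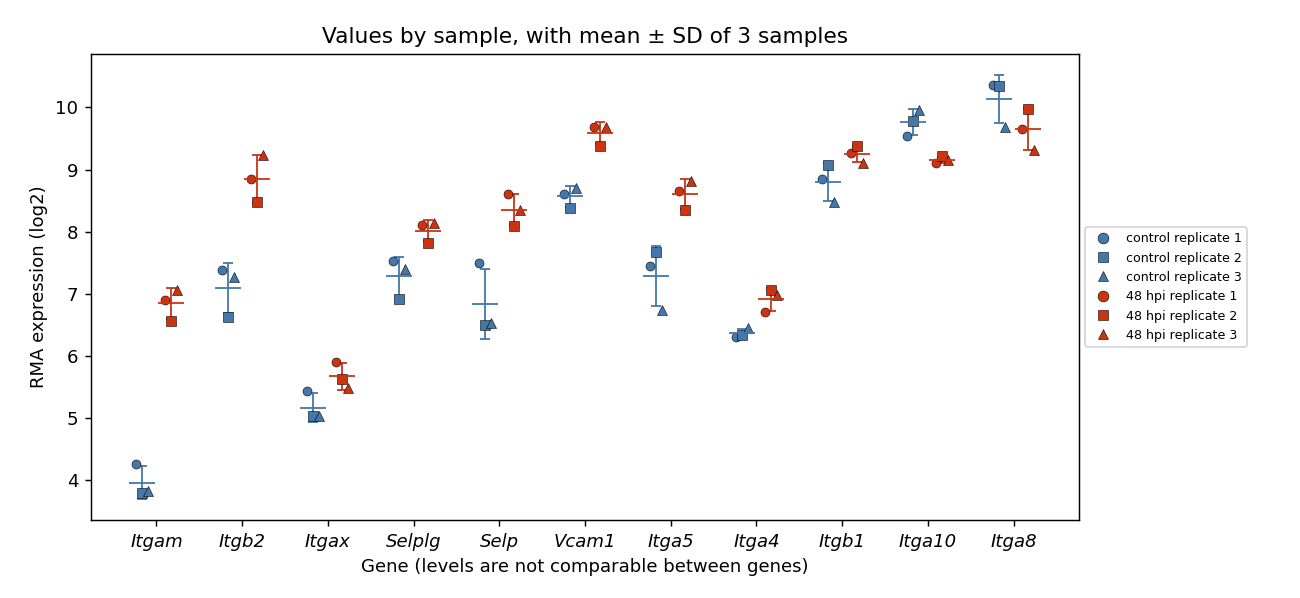
Level of the 11 adhesion genes called with or without the replicate block (horizontal axis), as log2 RMA values (vertical axis), 1 symbol for each sample and bars for mean ± SD (n = 3). The injured samples of Itgam lie between 6.56 and 7.06, above all controls, and those of Itga10 between 9.10 and 9.21, below all controls.

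Chains that bind matrix went both ways. Itga5, which with Itgb1 forms the classical fibronectin receptor, was at 7.45, 7.67 and 6.74 in controls and at 8.66, 8.35 and 8.82 at 48 hpi. Control replicate 3 was the lowest control and its counterpart at 48 hpi the highest injured sample. The difference was 1.32 ± 0.24 (2.50-fold, adjusted p = 0.0311). It stayed past the threshold without control replicate 2 or 3 and was lost without each of the other samples, with adjusted p up to 0.134. Only the brightest of its 4 probe sets passed.

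The other α chains that recognize RGD did not rise. Itgav, bright in all samples at 11.42, 11.53 and 11.40 against 11.15, 11.23 and 11.24, was lower in each injured sample by a small margin (-0.24 ± 0.08, adjusted p = 0.169). Itga8, a chain of smooth muscle and fibroblasts, was at 10.37, 10.35 and 9.69 in controls and 9.66, 9.98 and 9.31 at 48 hpi. The groups overlapped, but each injured sample was below the control of its number, and the difference of -0.49 ± 0.23 passed only with the replicate block (adjusted p = 0.0304, against 0.314 without it). Itga2b, the α chain of the platelet fibrinogen receptor, was at 7.28, 7.26 and 7.10 against 7.39, 7.32 and 7.49, with a difference of 0.19 ± 0.09 (adjusted p = 0.328).

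Itga10, a collagen receptor chain of chondrocytes, was the 1 adhesion gene that fell. It was at 9.54, 9.79 and 9.96 in controls and at 9.10, 9.21 and 9.15 at 48 hpi. The injured samples had an SD of 0.05, and the highest of them lay 0.33 below the lowest control. The difference of -0.61 ± 0.12 (1.53-fold lower, adjusted p = 0.0390) was lost when any sample but control replicate 1 was left out, with adjusted p up to 0.146. Markers of chondrocytes were lower beside it, with all 12 below 0, a median of -0.61 and 3 falls, or 9 with the replicate block. Their summed signal was 45729 to 51373 in controls and 29233 to 37028 at 48 hpi, and its part in the result for Itga10 was not tested. The collagen receptor chains Itga1, found on fibroblasts and smooth muscle, and Itga2, its neighbor in gene order, were not called (0.35 ± 0.16 and 0.15 ± 0.12, adjusted p = 0.293 and 0.560).

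No laminin receptor chain was called. Itga3 differed by 0.30 ± 0.12 with all injured samples above the controls (adjusted p = 0.249). Itga7, the chain of muscle, differed by 0.20 ± 0.19 (0.625), and Itga6 by 0.11 ± 0.09 (0.540). Itgb4, which pairs with Itga6 in the hemidesmosomes of basal epithelial cells, overlapped between groups at 7.12, 6.53 and 6.67 against 7.49, 7.01 and 6.84 (0.34 ± 0.21, adjusted p = 0.434). Itgb6, a chain of epithelium that partners Itgav, was below the dim bound in every sample, from 4.05 to 4.56 (-0.14 ± 0.13, adjusted p = 0.598). The summed signal of 15 epithelial markers ran from 23357 to 38211 in controls and from 4960 to 26228 at 48 hpi. The sum is set by the secretory genes Bpifa1, Scgb1a1 and Scgb3a2, with control means of 13.73, 12.88 and 12.32, while Krt5 and Epcam, dimmer markers, differed by 0.18 ± 0.27 and 0.05 ± 0.11. None of the 15 was called in limma without the block, and with it Scgb1a1 and Scgb3a2 were lower (-2.57 and -2.07, adjusted p = 0.0146 and 0.0339) and Krt19 was higher (0.80, 0.0246). The part of residual epithelium in the values of Itga6, Itgb4, Itgb6 and F11r was not tested.

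Itga4, whose dimers with Itgb1 or Itgb7 bind Vcam1 and fibronectin, rose by a small step. It was at 6.30, 6.34 and 6.44 in controls and at 6.70, 7.05 and 6.97 at 48 hpi. All injured samples were above the controls, whose SD was 0.07. The difference of 0.55 ± 0.11 (1.46-fold, adjusted p = 0.0432) held in 1 of the 6 fits without 1 sample, that without 48 hpi replicate 1, and adjusted p reached 0.168 in the others. It was also lost with cyclic loess and with an intensity trend and robust spread. Itga9, a related chain that binds tenascin and Vcam1, was level by its brightest probe set (0.03 ± 0.20, adjusted p = 0.948). Its next probe set differed by 0.45 ± 0.14 and passed only with the replicate block (adjusted p = 0.0289, against 0.145 without it). The dimmest differed by 0.05 ± 0.10.

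No β chain of the matrix integrins passed without the replicate block. Itgb1, the common partner of most matrix receptors, was at 8.85, 9.07 and 8.47 in controls and at 9.26, 9.38 and 9.11 at 48 hpi with the samples of both groups in the same order. Its difference of 0.45 ± 0.16 passed with the block (adjusted p = 0.0323, against 0.186). Of its 6 probe sets 5 were above 0, the next brightest at 0.84 ± 0.18 (adjusted p = 0.0508), and 1 was at -1.12 ± 0.46. Itgb3, which pairs with Itgav or Itga2b, differed by 0.49 ± 0.13 with all injured samples above the controls (adjusted p = 0.0967), and Itgb8, which with Itgav activates TGFβ, by 0.38 ± 0.16 (0.271). Itgb5, another partner of Itgav, was at 10.15, 10.01 and 10.16 against 10.01, 9.98 and 9.91 (-0.14 ± 0.09, adjusted p = 0.428), and its 4 probe sets differed by -0.14 to -0.22.

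Junctional adhesion molecules, which seal contacts between endothelial or epithelial cells and also bind leukocyte integrins, were not called. The differences were -0.22 ± 0.13 for Jam2, -0.29 ± 0.13 for Jam3 and 0.17 ± 0.13 for F11r, with adjusted p of 0.403, 0.287 and 0.528. The groups overlapped for all 3 genes. Neither fit called any of them.

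**Figure D3:**
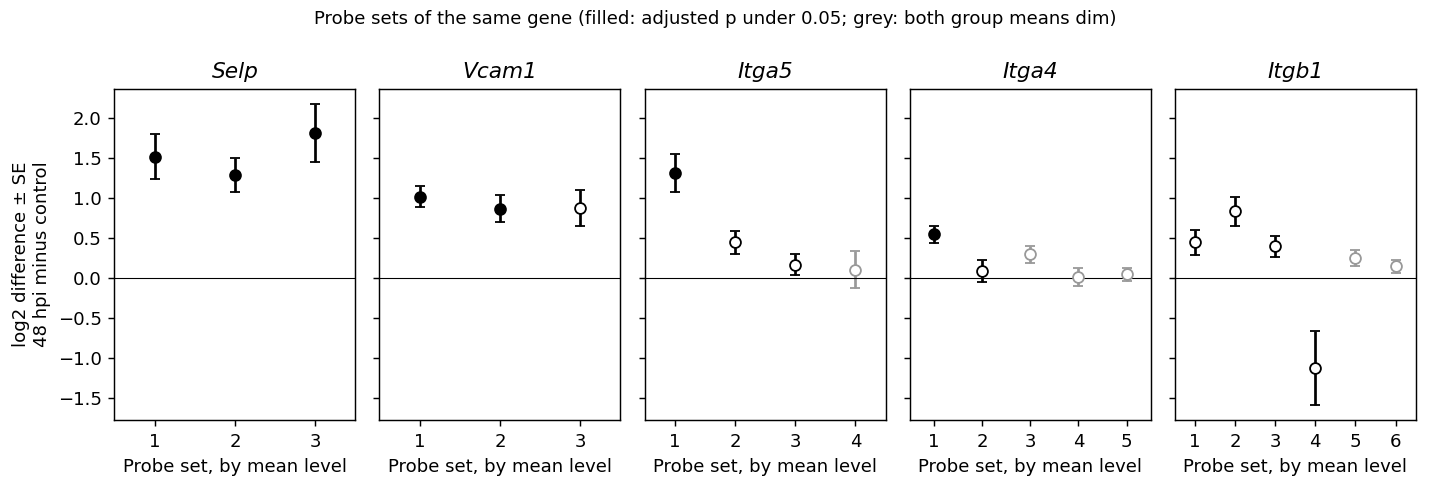
Log2 difference ± SE between 48 hpi and control (vertical axis) for each probe set of 5 genes, ordered by mean level (horizontal axis), filled where the adjusted p was under 0.05 and grey where both group means were below 4.74. All 3 probe sets of Selp passed and 2 of the 3 of Vcam1, but 1 of 4 for Itga5 and 1 of 5 for Itga4.

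The 32 genes had 72 probe sets, and 19 genes had more than 1. For Itga4 the dimmer probe sets ranged from 0.02 to 0.30, and for Itga5 from 0.11 to 0.45, so the folds of these genes rest on the brightest probe set. For Vcam1 the dimmer probe sets gave 0.87 and 0.88. Itgam, Itgb2, Selplg, Itgax and Itga10 have 1 probe set each and no such comparison.

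Genes that act with integrins inside the cell were called in part. Of 28 measured activators and adaptors 4 rose and 0 fell, and the replicate block brought this to 9 rises and 1 fall. Over all genes 4.97% rose and 1.24% fell, or 8.77% and 4.64% with the block. Fermt3, the kindlin of blood cells that switches integrins on, was at 7.43, 6.59 and 7.26 in controls and at 8.94, 8.41 and 9.09 at 48 hpi. Replicate 2 was the lowest sample of both groups, as for Itgb2. The difference was 1.72 ± 0.26 (adjusted p = 0.0152). Cytip, which binds cytohesin in lymphoid and myeloid cells, rose by 1.21 ± 0.20 (0.0215), the leukocyte adaptor Fyb by 1.20 ± 0.13 (0.00401) and the parvin Parvb, named after its values were seen, by 0.80 ± 0.16 (0.0439). Fyb passed in all 6 fits without 1 sample, Fermt3 in 3, and Cytip and Parvb in 1 each. Of their probe sets 2 of 2 passed for Fyb, 1 of 3 for Cytip and 1 of 4 for Fermt3, with 3 of these 4 above 0. For Parvb 1 of 2 passed and the other was below 0.

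Among 26 matrix ligands 2 rose, against 4.97% of all genes, and with the block 5 rose and 2 fell, against 8.77% and 4.64%. The median was -0.03, with 16 of the 26 below 0. Fibronectin (Fn1), named after its values were seen, was level (-0.01 ± 0.11, adjusted p = 0.965). Tenascin C (Tnc), a ligand of Itga9 dimers, rose by 2.46 ± 0.23 (adjusted p = 0.00223), from 8.52, 8.63 and 8.04 to 10.44, 10.94 and 11.18, and thrombospondin 1 (Thbs1) by 1.21 ± 0.15 (0.00826). Both passed in all 6 fits without 1 sample, and 1 of 2 probe sets passed for Tnc and 2 of 2 for Thbs1. Of 20 other leukocyte adhesion genes, whose median was 0.01, 4 rose. They were Ackr1, the chemokine binding protein of venules (1.17 ± 0.17, adjusted p = 0.0126), Icam2 (1.03 ± 0.19, 0.0315), the hyaluronan receptor Cd44 (0.93 ± 0.10, 0.00485) and, named after its values were seen, the endothelial junction gene Esam (0.48 ± 0.09, 0.0301). Ackr1 and Cd44 passed in all 6 fits without 1 sample, Icam2 and Esam in none. The block added Pecam1, another endothelial junction gene (0.53 ± 0.22, adjusted p = 0.0275, against 0.247 without it). Icam4 and Icam5, the next genes after Icam1 in gene order, differed by -0.17 ± 0.10 and -0.07 ± 0.08 (adjusted p = 0.427 and 0.721). Of 14 enzymes that build selectin ligands, the galactosyltransferase B4galt1 rose (0.49 ± 0.09, 0.0345) and the sialyltransferase St3gal6 fell (-0.46 ± 0.09, 0.0343), and both calls were lost in all 6 fits without 1 sample. Here the block added the sulfotransferase Tpst1 below 0 (-0.44 ± 0.11, adjusted p = 0.0282, against 0.0853).

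Most pan-leukocyte markers and most monocyte and macrophage markers were higher at 48 hpi, beside the rises of Itgam and Itgb2. Of 11 pan-leukocyte markers 10 rose, with a median of 1.13 and a summed signal of 2502 to 3178 in controls and 5155 to 6511 at 48 hpi, and none of their 4 defining members was dim. Ptprc, the common leukocyte antigen, was at 8.63, 8.34 and 8.74 and then at 9.62, 9.45 and 9.73. Of 17 monocyte and macrophage markers 15 rose (median 1.24, summed signal 13252 to 14819 and 15658 to 22242), none of 4 defining members dim. Their sum is led by Lyz2, with group means of 13.23 and 12.80, which was not called (-0.43 ± 0.24, adjusted p = 0.399). Cx3cr1 was not called either (0.01 ± 0.10, adjusted p = 0.979). Of 13 neutrophil markers 4 rose, or 7 with the replicate block (median 0.98, summed signal 569 to 803 and 2257 to 5143). Of the 13, 5 were dim, Cxcr2 among them. At 48 hpi the sum is led by S100a8 and S100a9, with means of 10.51 and 9.98. Neither fit called Cxcr2, Ngp, Camp, Mmp8, Mpo or Elane, which differed by -0.26 to 0.39. S100a8, a calprotectin chain, was at 7.33, 4.38 and 7.01 in controls, so that control replicate 2 was lowest here as for Itgb2, Selplg and Fermt3. This was not particular to leukocyte genes. Among epithelial markers, control replicate 2 was also lowest for Cdh1 (8.54, 7.07 and 8.32) and Krt8 (9.34, 8.03 and 9.18), though not for Epcam (7.76, 7.93 and 8.09). It also had the lowest 3′ to 5′ differences of the controls for β-actin (1.02) and Gapdh (0.56). The cause of its low values was not tested. The part of leukocytes in the rises of Itgam, Itgb2 and Itga4 was not tested.

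Lymphocyte markers did not move in this way. Of 13 T and NK cell markers 0 rose and 0 fell in limma, with a median of -0.07 and a summed signal of 848 to 1223 in controls and 1244 to 1398 at 48 hpi. With the block 1 of them was higher (Thy1, 0.66 ± 0.17, adjusted p = 0.0189, against 0.0883). The sum is set by Thy1, with group means of 9.33 and 9.99, while the next brightest, Cd3d, was at 5.78 and 5.62. Ncr1 was dim, and Cd3d and Cd3e differed by -0.16 ± 0.24 and -0.12 ± 0.13. Of 9 B cell markers 0 were called in either fit (median -0.04, summed signal 296 to 824 and 292 to 546), and the defining members Cd79a, Cd79b and Ms4a1 were dim. These values stand beside those of Itgal, Itgae and Itgb7. Of 10 dendritic cell markers 1 rose, or 3 with the block (median -0.07, summed signal 1971 to 2751 and 2728 to 3538), with Xcr1 dim. The sum is led by Cd74, with group means of 10.19 and 10.03, and by Fscn1, the 1 called, with 9.36 and 10.52. Neither fit called the defining members Flt3, Zbtb46, Xcr1 and Cd209a (0.16 ± 0.21, -0.15 ± 0.10, -0.17 ± 0.08 and -0.19 ± 0.18). Of 10 mast cell markers 0 passed in limma, or 4 with the block (median 0.55, summed signal 635 to 1076 and 943 to 1163), with Ms4a2 dim. Of 10 smooth muscle markers 0 passed in either fit, of 12 fibroblast markers 2 fell (with the block 1 rose and 3 fell), and all 11 mitosis genes rose, with a median of 3.24.

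Platelet genes split. Of 8 measured, the platelet chemokine genes Ppbp and Pf4 rose, and the summed signal went from 659 to 943 up to 3094 to 5602. The median was 0.02, Gp6 was dim and Gp9 was at 5.62 ± 0.23 and 5.49 ± 0.10 (SD, n = 3), beside the difference of 0.19 for Itga2b. Of 15 endothelial markers Cdh5 and Tie1 rose (0.71 ± 0.14 and 0.65 ± 0.10), and with the block also Eng and Plvap, with a median of 0.27, a summed signal of 3787 to 4219 in controls and 4666 to 5538 at 48 hpi and none of 4 defining members dim. Only 1 of the 2 probe sets of Cdh5 was above 0, and Kdr differed by -0.13 ± 0.11. The part of endothelial or other cells in the rises of Selp and Vcam1 was not tested.

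**Figure D4:**
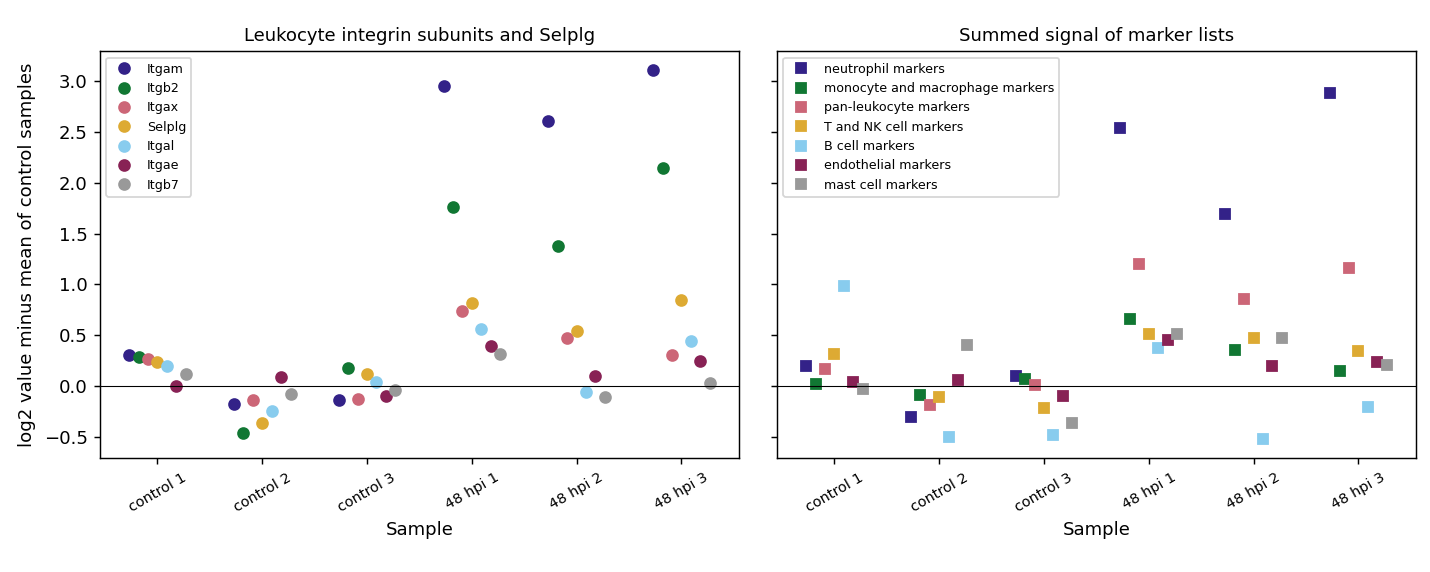
Left, log2 value minus the mean of the controls (vertical axis) in each of the 6 samples (horizontal axis) for leukocyte integrin chains and Selplg. Right, the same for the summed signal of 7 marker lists. At 48 hpi neutrophil markers reach 1.69 to 2.88 and pan-leukocyte markers 0.86 to 1.20. The neutrophil sum is led by S100a8 and S100a9. Over genes, the median difference was 0.98 for neutrophil markers and 1.13 for pan-leukocyte markers.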

How the data were processed

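RNA of tracheal mesenchyme, 4 mice per sample, was amplified and hybridized to Affymetrix mouse genome arrays, 1 per sample. The deposited values are log2 expression values per probe set, which the authors made by robust multi-array analysis (RMA: background correction, quantile normalization and summary). Besides RMA, Affymetrix Expression Console 1.1 and Partek 6.5 are named in the processing notes of the submitters. RMA removes differences in total brightness and compresses the folds of dim genes. The number of arrays limits the precision. As pools are separate samples, p-values measure the spread between pools.

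Of 45101 probe sets 64 Affymetrix controls were left out and 45037 tested. The platform annotation gave 1 symbol to 34945, several to 932 and none to 9160, and 34754 were matched to RefSeq by Entrez identifier for current symbols. Differences were tested with limma 3.58.1 in R 4.3.3 (lmFit and eBayes, a two-sided test on group alone, Benjamini-Hochberg over 45037 probe sets, threshold 0.05), without a filter on low values. Of the 32 genes 30 had a mean at or above the dim bound, the 40th percentile of all values. The summed signal of a list is the sum of its linear values. Same-numbered samples deviated together from their group means (r = 0.62, 0.36 and 0.34 over probe sets). Between samples of different numbers r ran from -0.43 to 0.18. Values with the replicate number as a blocking factor are given where they changed the call of an adhesion gene or the count of a list. This pairing comes from the data, not from the labels. The fit was checked on simulated data. The genes, the marker and pathway lists and the rule for named genes (all adhesion genes, and the largest called changes of each pathway list, up to 3 each way) were chosen with earlier results of these data known, the 4 promoters after the values were seen. Alternatives were the replicate block, leaving out samples, other normalizations, a filter on dim probe sets, the mean of a gene's probe sets and other tests.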

Additional observations from a re-analysis of the deposited data

How the results depend on the processing

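The rises of Itgam, Itgb2, Selp, Vcam1 and Itga5 and the fall of Itga10 also passed with cyclic loess, with median centring, without dim probe sets and with an intensity trend and robust spread, and Itga4 was lost with cyclic loess and with the trend. The fit on the mean of a gene's probe sets lost Itga5 and Itga4 and gained Selplg. Selplg has 1 probe set and so the same values there, but that fit adjusts p over genes and not over all probe sets. Against 6 adhesion genes higher and 1 lower, 3 were higher with both samples numbered 1 left out, and 2 to 4 were higher and 0 to 1 lower when 1 sample was left out. An ordinary linear model called 0 higher and 0 lower after adjustment, and 8 higher and 2 lower at an unadjusted p under 0.05. The replicate block gave 9 higher and 2 lower. Over all genes, 904 higher and 226 lower became 1596 and 845 with the replicate block, 413 and 76 without both samples numbered 1, 41 and 4 with the ordinary linear model, 2399 and 1461 with it unadjusted, and 349 to 647 and 17 to 98 without 1 sample. For the 4 pathway lists, 11 higher and 1 lower became 20 and 5 with the block, 7 and 0 without both samples numbered 1, 0 and 0 with the ordinary linear model, 20 and 8 with it unadjusted, and 5 to 7 and 0 without 1 sample. Their count of falls was 2 with cyclic loess, 2 with dim probe sets left out, 3 with the mean of probe sets and 0 with median centring. Leaving out 1 sample moved the differences of uncalled genes across 0, from -0.02 to 0.35 for Itga7, from -0.17 to 0.15 for Itga9, from -0.04 to 0.18 for Itgb7 and from -0.05 to 0.22 for Icam1. The cause of these changes was not tested, and fits that leave out samples also have fewer of them. Genes near or below the dim bound (Itgam in controls, Sele and Itgb6) have folds limited by signal over background.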
